A study of Homo sapiens with 6 samples.

Results

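Osteoblast differentiation genes were followed in hFOB 1.19 cells, a human fetal osteoblast line. The genes were 4 transcription factors (RUNX2, SP7, DLX5 and MSX2), 1 mineral-forming enzyme (ALPL) and 4 matrix proteins (SPARC, SPP1, IBSP and BGLAP). They were chosen by name, and make up 9 of the 35639 genes in the deposited RNA-seq table. All cells owe their growth to a temperature-sensitive form of SV40 large T antigen and were kept at 34 °C, the temperature at which they divide. EV cells received the pHIV-dTomato lentivirus with no histone insert. H3.3WT cells received the same vector with Drosophila His3.3A cDNA, tagged with HA at the C terminus, and H3.3G34W cells the same insert with tryptophan in place of glycine at position 34. Cells were sorted in bulk for dTomato, so that no group is a clone, and their RNA was collected 15 days after transduction. The insert was added to the cells' own H3.3 genes. Its RNA is not a row of the human table, so the group labels were not checked against it.

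The libraries compared were EV replicate 2, H3.3WT replicates 1 and 2 and H3.3G34W replicates 1 and 2. EV replicate 1 was left out because 28688 of its 35639 genes, including 8 of the 9 osteoblast genes, are listed at 0. Values are normalised estimated counts, which summed to between 38821144 and 48024590 in the 5 libraries; the number of reads behind a value is unknown. Groups follow the library titles. In the sample labels, the genotype entries for H3.3WT and H3.3G34W are swapped relative to these titles, and under that reading every difference between these lines would change sign. The comparisons of H3.3WT and of H3.3G34W with EV would then exchange places.

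H3.3G34W replicate 1 stood apart from the other libraries. Across 13403 genes its Pearson correlation with each of them was 0.898 to 0.906, against 0.966 to 0.978 among the other 4. All 11 pluripotency markers found in the table (of 12 listed) were more than 2-fold higher there than in any other library. Their values summed to 66354 in H3.3G34W replicate 1, with POU5F1 as the most abundant at 19441. The sums were 1142 in EV replicate 2, 981 and 1058 in the H3.3WT libraries and 955 in H3.3G34W replicate 2. Of these markers, 3 (DNMT3B, LIN28B and ZFP42) had values of at least 50 in all 5 libraries. Results on the osteoblast genes that rest on H3.3G34W replicate 1 are therefore given with and without it.

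Osteoblasts arise from mesenchymal progenitors through an ordered programme. RUNX2 commits cells to the lineage, SP7 (osterix) acts downstream of it, and homeobox factors such as DLX5 and MSX2 tune both. Type I collagen and SPARC are made from early on, alkaline phosphatase rises as the matrix matures, and bone sialoprotein (IBSP) and osteocalcin (BGLAP) mark cells that mineralise.

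Levels were first compared between genes per kb of transcript, using the median over the 5 libraries. SPARC, which encodes the collagen-binding glycoprotein osteonectin, came first with 22043 per kb. It stood at percentile 99.5 of the 24266 genes with a transcript length and a value above 0. SPP1 followed with 264.3 per kb (percentile 69.3), ALPL with 96.8 (percentile 58.2), RUNX2 with 77.6 (percentile 56.2) and BGLAP with 54.1 (percentile 53.4). MSX2 had 8.25 per kb (percentile 40), DLX5 3.10 (percentile 32.1) and SP7 1.02 (percentile 24.8), and the median of IBSP was 0. SPARC lay above SPP1 in every library, and the ranges of MSX2 and DLX5 did not overlap. Every other pair of neighbours in this order overlapped over the 5 libraries, so their order was not beyond the spread. ALPL, for example, ranged from 42.2 to 480 per kb and spanned the whole RUNX2 range of 42.7 to 103. Type I collagen was high as well, with a median of 5707 per kb for COL1A1 (percentile 97.6). Of the osteoblast genes at 34 °C, the early matrix gene SPARC was thus among the most abundant in the cells. RUNX2, ALPL and BGLAP were near the middle of the 24266 genes, which include genes with values near 0, and SPP1 had a higher median. MSX2, DLX5, SP7 and IBSP were lower, with IBSP at a median of 0.

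**Figure D1:**
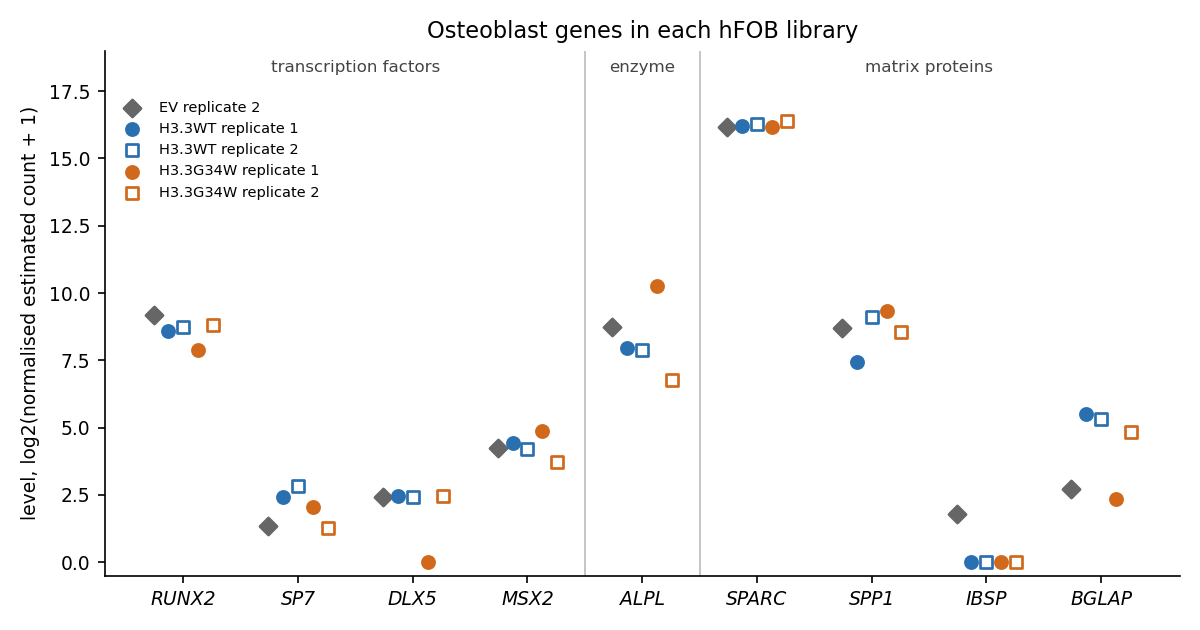
Level of each osteoblast gene in each library, as log2(normalised estimated count + 1); each point is 1 library, and genes are grouped by role. SPARC is near 16 in all 5 libraries, while ALPL runs from 107 to 1216 normalised estimated counts, with both of these extremes in H3.3G34W libraries.

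**Figure D2:**
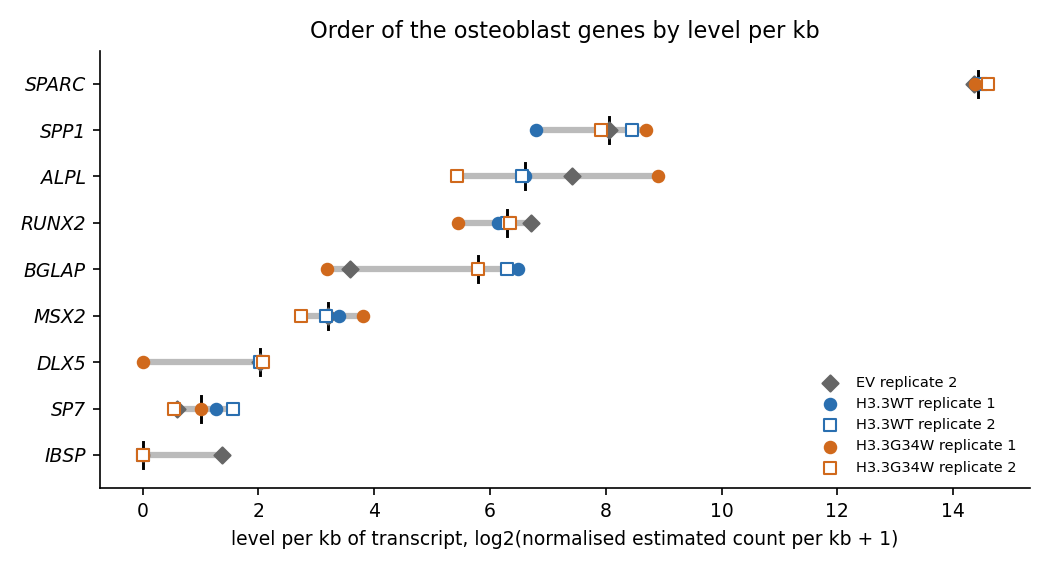
The same genes per kb of transcript, as log2(value per kb + 1), from the highest median to the lowest; points are libraries, grey bars run from the lowest to the highest library and black ticks are medians. The SPARC points stand clear of all others, and the bars of SPP1, ALPL, RUNX2 and BGLAP overlap.

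RUNX2 (ENSG00000124813; chr6:45328330-45551082 in GRCh38.p14), the runt-domain factor required for osteoblast formation, had 573 normalised estimated counts in EV replicate 2. It had 387 and 429.7 in the H3.3WT libraries and 236 and 445 in H3.3G34W replicates 1 and 2. EV replicate 2 was highest and H3.3G34W replicate 1 lowest, and the H3.3G34W libraries lay on either side of both H3.3WT libraries. The difference between H3.3G34W and H3.3WT on the log2(value + 1) scale was -0.33 (standard error 0.39, 95% interval -1.21 to 0.56, adjusted p = 1 in limma). Without H3.3G34W replicate 1 the sign changed, to 0.13 (95% interval -0.86 to 1.11). Against EV replicate 2 the differences were -0.49 for H3.3WT and -0.82 for H3.3G34W, and neither passed the test (adjusted p = 1 for both in limma). The latter was -0.36 without H3.3G34W replicate 1 and -1.27 without replicate 2.

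RUNX proteins bind DNA at the letters ACCACA, read as TGTGGT on the other strand. In the RefSeq promoter table for GRCh38.p14, 7 of the 9 genes had an entry, 10 promoters in all, and SP7 and DLX5 had none. Searched on both strands over the 250 bases before the start site, the letters were found in 3 of these promoters, and in 11% of all 35116 promoters. The 3 promoters with a match are shown, and they belong to RUNX2, SPP1 and BGLAP. No match was found in the other RUNX2 promoter, in any ALPL promoter or in those of IBSP, MSX2 and SPARC. Each is written 5′ to 3′ on the plus strand, which is the strand of the gene, with the matching letters in capitals. The windows are chr6:45328080-45328329 for the upstream of a pair of RUNX2 promoters, chr4:87975464-87975713 for SPP1 and chr1:156241934-156242183 for BGLAP.
RUNX2: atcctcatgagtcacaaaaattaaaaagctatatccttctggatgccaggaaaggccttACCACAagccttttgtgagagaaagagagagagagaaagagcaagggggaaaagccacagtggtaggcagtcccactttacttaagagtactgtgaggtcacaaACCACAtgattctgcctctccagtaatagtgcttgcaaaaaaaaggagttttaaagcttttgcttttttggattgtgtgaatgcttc
SPP1: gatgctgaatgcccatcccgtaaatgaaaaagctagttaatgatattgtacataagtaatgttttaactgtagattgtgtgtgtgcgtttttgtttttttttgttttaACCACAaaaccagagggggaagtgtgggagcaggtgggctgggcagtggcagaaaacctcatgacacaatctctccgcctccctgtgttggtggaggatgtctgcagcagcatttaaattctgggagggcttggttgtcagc
BGLAP: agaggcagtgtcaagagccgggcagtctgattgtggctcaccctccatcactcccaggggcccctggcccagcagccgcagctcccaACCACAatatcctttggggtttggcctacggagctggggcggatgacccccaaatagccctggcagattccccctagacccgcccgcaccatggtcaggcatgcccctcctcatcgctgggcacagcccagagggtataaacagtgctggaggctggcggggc
The RUNX2 window holds the letters 191 and 87 bases before the start site, the SPP1 window 142 bases and the BGLAP window 163 bases before it. Binding was not measured in these libraries, and a match describes the letters only. RUNX2, SPP1 and BGLAP did not share a pattern over the libraries: among the 5, RUNX2 was highest in EV replicate 2, SPP1 in H3.3G34W replicate 1 and BGLAP in H3.3WT replicate 1.

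SP7 (ENSG00000170374; chr12:53326575-53344793), the zinc-finger factor osterix, had 1.57 normalised estimated counts in EV replicate 2, 4.39 and 6.03 in the H3.3WT libraries and 3.18 and 1.43 in the H3.3G34W libraries. Both H3.3G34W values lay below both H3.3WT values, and EV replicate 2 lay with the H3.3G34W libraries. At this level the gap between the closest libraries of these lines was -0.37 on the log2(value + 1) scale, from 4.39 to 3.18 normalised estimated counts. DLX5 (ENSG00000105880; chr7:97020396-97024831), a distal-less homeobox factor, had 4.39 in EV replicate 2, 4.46 and 4.33 in the H3.3WT libraries and 4.56 in H3.3G34W replicate 2. It was listed at 0 in H3.3G34W replicate 1, the only library that departed from the other 4. The smallest low value that recurred within a library was 0.512 to 0.729, so that SP7 and DLX5 were at most about 8 such steps above 0. Neither reached the mean of 10 required for the test, and differences at this level were not resolved.

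MSX2 (ENSG00000120149; chr5:174724582-174730896), a homeobox factor of early skeletal cells, had 18.1 normalised estimated counts in EV replicate 2. It had 20.8 and 17.6 in the H3.3WT libraries and 28.4 and 12.4 in H3.3G34W replicates 1 and 2. The H3.3G34W libraries held both the highest and the lowest value, with EV and H3.3WT between them. The difference between H3.3G34W and H3.3WT was -0.02 (standard error 0.97, 95% interval -2.22 to 2.17, adjusted p = 1 in limma). It was -0.59 without H3.3G34W replicate 1 and 0.55 without H3.3G34W replicate 2. The interval with all 5 libraries is wide enough to hold a 4-fold difference in either direction.

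ALPL (ENSG00000162551; chr1:21508984-21578410) encodes tissue-nonspecific alkaline phosphatase, which frees phosphate for mineral and is also active in pluripotent cells. It had 428 normalised estimated counts in EV replicate 2, 245 and 236 in the H3.3WT libraries, 1216 in H3.3G34W replicate 1 and 107 in H3.3G34W replicate 2. The H3.3WT libraries were close to each other (240.5 ± 7.02, SD, n = 2), whereas the H3.3G34W libraries were the highest and the lowest of the 5 (662 ± 784, SD, n = 2). Between the latter the ratio was 11.4, and H3.3G34W replicate 1 was 4.79 times the mean of the other 4 libraries. The difference between H3.3G34W and H3.3WT was 0.59 (standard error 0.89, 95% interval -1.43 to 2.60, adjusted p = 1 in limma). Without H3.3G34W replicate 1 it was -1.16 (95% interval -2.38 to 0.06, adjusted p = 1 in limma), so the direction rested on that library. Without H3.3G34W replicate 2 it was 2.33 (adjusted p = 0.175 in limma). Relative to EV replicate 2, the H3.3WT difference was -0.83 and the H3.3G34W difference -0.24. The latter was -1.99 without H3.3G34W replicate 1 and 1.50 without H3.3G34W replicate 2. The sum of the pluripotency markers was 66354 in the library with the highest ALPL, H3.3G34W replicate 1. In the other libraries this sum was 955 to 1142, while ALPL ran from 107 to 428. The part of these markers in the ALPL value was not tested. In bulk RNA, fewer cells of a type and less RNA per cell cannot be told apart.

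SPARC (ENSG00000113140; chr5:151661096-151686915) had 72998 normalised estimated counts in EV replicate 2, 76069 and 79359 in the H3.3WT libraries and 73806 and 85409 in the H3.3G34W libraries. The highest library was 1.17 times the lowest, the narrowest range of the 7 osteoblast genes that were above 0 in every library. The groups overlapped, with a difference of 0.03 between H3.3G34W and H3.3WT (standard error 0.29, 95% interval -0.62 to 0.68, adjusted p = 1 in limma). Among the 6 genes tested this interval was the narrowest. Without H3.3G34W replicate 1 the difference was 0.14, and without H3.3G34W replicate 2 it was -0.074.

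SPP1 (ENSG00000118785; chr4:87975714-87983411) encodes osteopontin, an acidic phosphoprotein that binds integrins and mineral. It had 413 normalised estimated counts in EV replicate 2, 171 and 544 in H3.3WT replicates 1 and 2, and 649 and 377 in H3.3G34W replicates 1 and 2. The H3.3WT libraries alone differed more than 3-fold, and the H3.3G34W values overlapped them. The difference between H3.3G34W and H3.3WT was 0.69 (standard error 0.54, 95% interval -0.53 to 1.92, adjusted p = 1 in limma). It was 0.30 without H3.3G34W replicate 1 and -0.14 without H3.3WT replicate 1, whose low value carried the direction. Without H3.3WT replicate 2 it was 1.52 (95% interval 0.38 to 2.67, adjusted p = 1 in limma). IBSP (ENSG00000029559; chr4:87799554-87812435), the bone sialoprotein gene, also on chromosome 4, had 2.50 in EV replicate 2 and was listed at 0 in the other 4 libraries. The value in EV replicate 2 equals 4 of that library's smallest recurring steps.

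BGLAP (ENSG00000242252; chr1:156242184-156243317) encodes osteocalcin, the vitamin K-dependent protein of mineralising osteoblasts. It had 5.55 normalised estimated counts in EV replicate 2, 44.9 and 39.3 in the H3.3WT libraries and 4.08 and 27.4 in H3.3G34W replicates 1 and 2. Both H3.3WT libraries were above all 3 others. The difference between H3.3G34W and H3.3WT was -1.84 (standard error 1.14, 95% interval -4.42 to 0.74, adjusted p = 1 in limma), and -0.60 (95% interval -2.63 to 1.43) without H3.3G34W replicate 1. Without H3.3G34W replicate 2 it was -3.08 (95% interval -5.36 to -0.80, adjusted p = 0.381 in limma). Between H3.3WT and EV it was 2.72 (95% interval -0.44 to 5.87, adjusted p = 1 in limma), which rests on a single EV library.

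The BGLAP values are uncertain because the gene lies inside the readthrough gene PMF1-BGLAP (chr1:156212988-156243332), with which estimated counts can be split. PMF1-BGLAP had 118 normalised estimated counts in EV replicate 2, 72.2 and 144 in the H3.3WT libraries and 229.8 and 174 in H3.3G34W replicates 1 and 2. It was highest in H3.3G34W replicate 1, where BGLAP was lowest, and lowest in H3.3WT replicate 1, where BGLAP was highest. Of the sum of both genes, the share listed for BGLAP was 4.50% in EV replicate 2, 38.4% and 21.4% in the H3.3WT libraries and 1.75% and 13.6% in the H3.3G34W libraries. The sum itself was 123 in EV replicate 2, 117 and 184 in H3.3WT and 234 and 202 in H3.3G34W, and so was ordered differently from BGLAP alone: both H3.3G34W libraries were above both H3.3WT libraries. Whether the division of reads between these genes made the BGLAP difference was not tested.

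**Figure D3:**
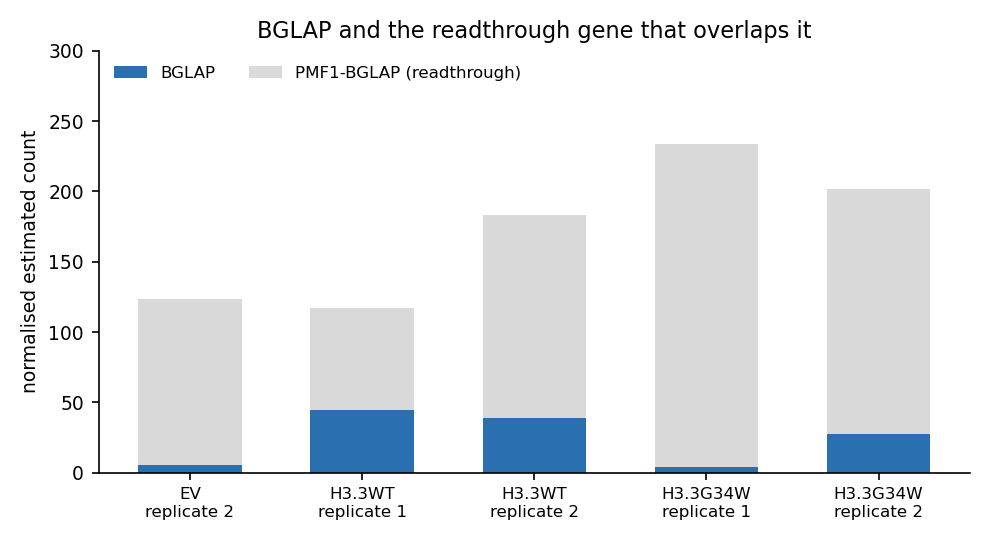
Normalised estimated counts listed for BGLAP (blue) and for the overlapping readthrough gene PMF1-BGLAP (grey), stacked for each library. The BGLAP share is larger in the H3.3WT libraries, at 38.4% and 21.4%, than in the other 3, while the stacked sum is largest in the H3.3G34W libraries, at 234 and 202.

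Differences were then tested across the table with limma on log2(value + 1), over 16259 genes with a mean of at least 10. Of the 9 osteoblast genes, 6 were tested, and SP7, DLX5 and IBSP were below that mean. Between H3.3G34W and H3.3WT, 0 of the 6 had an adjusted p under 0.05, against 0 of all genes tested (0%), and 0 of the 6 had an unadjusted p under 0.05, against 439 genes (2.70%). The latter count was 226 without H3.3G34W replicate 1 and 1510 without H3.3G34W replicate 2. Between H3.3WT and EV, 0 genes passed the adjusted threshold (0%) and 157 (0.966%) the unadjusted one. Between H3.3G34W and EV these counts were 0 (0%) and 317 (1.95%). None of the osteoblast genes was among them, and the smallest unadjusted p among the 6 genes in these comparisons was 0.0833, for BGLAP between H3.3WT and EV. With duplicates, and with a single EV library that is assumed to vary like the others, these p-values measure only the spread between libraries. A p above the threshold does not show that the levels were alike. Among the 6 genes, 1 (BGLAP) was lower in both H3.3G34W libraries than in both H3.3WT libraries, beside 14.7% of all genes tested, and 0 were higher in both, beside 11.6%. Over the 6 genes the median difference was 0.005, with 3 below and 3 above 0, and over all genes tested it was -0.06. For the 6 genes it was -0.23 without H3.3G34W replicate 1 and 0.24 without H3.3G34W replicate 2, and 0.31 over those with a mean of at least 50.

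**Figure D4:**
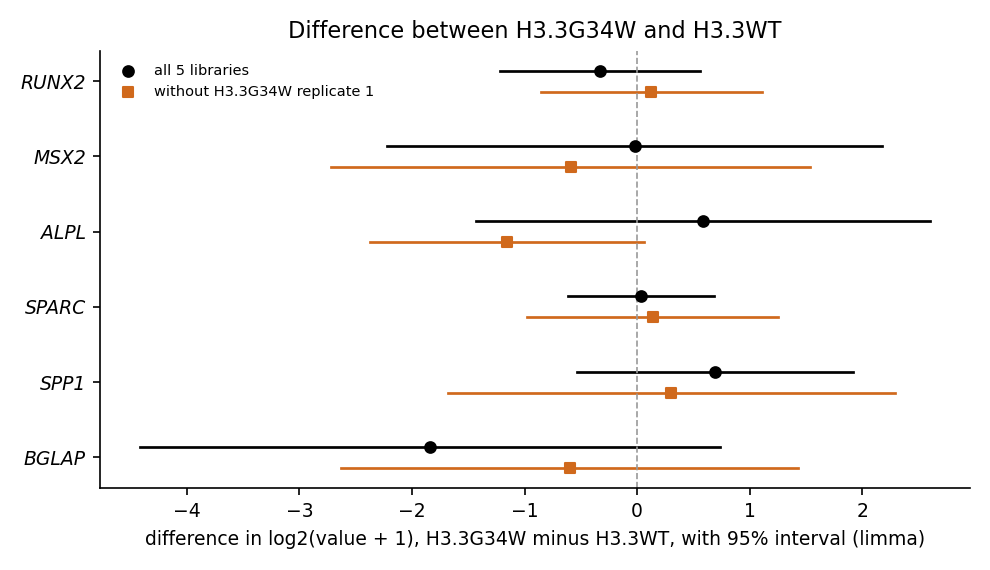
Difference in log2(value + 1) between H3.3G34W and H3.3WT for the 6 osteoblast genes tested, with 95% intervals from limma, for all 5 libraries (black) and without H3.3G34W replicate 1 (orange). With all 5 libraries every interval includes 0; ALPL moves from 0.59 to -1.16 and RUNX2 from -0.33 to 0.13 when that library is left out.

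Relative to the other 4 libraries, H3.3G34W replicate 1 was above all of them for 3 osteoblast genes (ALPL, SPP1 and MSX2) and below all of them for 3 (RUNX2, BGLAP and DLX5). SP7, IBSP and SPARC lay within their range. Of the 6 genes tested, 3 were above and 2 below, beside 20% and 40% of all genes tested in this library. RUNX2 there was 0.515 times the mean of the other 4 libraries, and BGLAP 0.139 times, while SPARC was 0.941 times. H3.3G34W replicate 2, which lacks the pluripotency signal, was the lowest library for ALPL, MSX2 and SP7 and the highest for SPARC and DLX5.

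The genes around the osteoblast factors were described from lists, with limma differences between H3.3G34W and H3.3WT. Over all genes tested, 2.70% had an unadjusted p under 0.05 in that comparison. Of 38 other osteogenic transcription factors and cofactors, 35 were tested and 0 passed the adjusted threshold (1 at an unadjusted p under 0.05), with a median difference of -0.21. The median log2 ratio to the H3.3WT mean was -0.44 in H3.3G34W replicate 1 and -0.06 in replicate 2, against -0.19 and 0.02 over all genes tested. The median of the list was -0.03 without H3.3G34W replicate 1 and -0.04 without H3.3WT replicate 2, and -0.42 and -0.39 without the other replicate of H3.3WT and H3.3G34W. RUNX3, a paralogue of RUNX2, had 73.4 normalised estimated counts in EV replicate 2, 153 and 128 in H3.3WT and 104 and 100.1 in H3.3G34W. LEF1, a WNT-responsive factor, had 31.2, 68.4 and 77.9, and 38.4 and 52.4 in the same order. For both, EV replicate 2 was the lowest library, H3.3G34W was next and H3.3WT was highest, but neither difference passed the test (adjusted p = 1 for both in limma). TBX3 had 6000 in EV replicate 2, 4351 and 7431 in H3.3WT and 3561 and 3034 in H3.3G34W. Of the 35 genes, 5 (14.3%) had both H3.3G34W libraries below both H3.3WT libraries, beside 14.7% of all genes tested. For 2 (5.71%) both were above, beside 11.6%.

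Mineral formation was represented by 16 enzymes, transporters and inhibitors that act beside ALPL. Of these 15 were tested and 0 passed (0 at an unadjusted p under 0.05), with a median of -0.22. This median was -0.05 without H3.3G34W replicate 1, -0.42 without H3.3G34W replicate 2 and -0.36 without H3.3WT replicate 1. ENPP1, which makes the pyrophosphate that ALPL removes, had 1262 normalised estimated counts in EV replicate 2, 1700 and 1550 in H3.3WT and 1811 and 1905 in H3.3G34W. Unlike ALPL, ENPP1 had H3.3G34W libraries within 1.1-fold of each other. SMPD3, a sphingomyelinase needed for bone mineral, had 61.8 in EV replicate 2, 165 and 73.3 in H3.3WT and 35.9 and 53.6 in H3.3G34W. Of the 15 genes, 3 (20%) had both H3.3G34W libraries below both H3.3WT libraries, beside 14.7% of all genes tested. For 2 (13.3%) both were above, beside 11.6%.

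Late genes were described next. Among 13 genes of the osteopontin and bone sialoprotein family and of osteocytes, 7 were tested, 0 passed (0 at an unadjusted p under 0.05) and the median was 0.21. This median was 0.30 without H3.3G34W replicate 1, -0.06 without H3.3G34W replicate 2, -0.17 without H3.3WT replicate 1 and 0 with no filter, so its direction rested on single libraries. The most abundant of them by normalised estimated count were CAPG, KCNK2 and SPP1. The 6 below the test's mean, named after their values were seen, were IBSP, DMP1, DSPP, MEPE, SOST and FGF23, and the highest value among the last 5 was 14.6, for MEPE in H3.3WT replicate 2. Of 35 bone matrix proteins and collagen-processing enzymes, 28 were tested, 0 passed (2 at an unadjusted p under 0.05) and the median was -0.17. It was -0.33 in H3.3G34W replicate 1 and -0.04 in replicate 2 relative to the H3.3WT mean, and the median was 0.03 without H3.3G34W replicate 1 or without H3.3WT replicate 2 and -0.30 without H3.3G34W replicate 2. DCN, which encodes the small proteoglycan decorin, had 449 in EV replicate 2, 506 and 397 in H3.3WT and 201 and 298 in H3.3G34W. Of the 28 genes, 5 (17.9%) had both H3.3G34W libraries below both H3.3WT libraries, beside 14.7% of all genes tested. For 0 of them both were above, beside 11.6%.

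Progenitor and signalling genes gave the same count of 0. All 18 stromal and osteoprogenitor markers were tested and 0 passed (2 at an unadjusted p under 0.05, beside 2.70% of all genes tested). Their median was -0.21, which was 0.04 without H3.3G34W replicate 1 and -0.46 without H3.3G34W replicate 2. NES, an intermediate filament of progenitors, had 11862 normalised estimated counts in EV replicate 2, 9565 and 13917 in H3.3WT and 4005 and 7823 in H3.3G34W. NGFR had 1514 in EV replicate 2, 890 and 1481 in H3.3WT and 393 and 777 in H3.3G34W. Of the 18 markers, 12 had a difference below 0 and 6 above 0. Both H3.3G34W libraries were below both H3.3WT libraries for 4 (22.2%), beside 14.7% of all genes tested. They were above both for 0, beside 11.6%. Of 30 genes of bone morphogenetic protein and WNT input, 27 were tested, 0 passed (1 at an unadjusted p under 0.05) and the median was -0.003, with 0.09 without H3.3G34W replicate 1 and -0.27 without H3.3G34W replicate 2. GREM1, a secreted inhibitor of bone morphogenetic proteins, had 11056 in EV replicate 2, 10164 and 26619 in H3.3WT and 9451 and 8473 in H3.3G34W. AXIN2, a WNT target, went the other way, with 103 and 89.2 in H3.3WT, 144 and 115 in H3.3G34W and 171 in EV replicate 2; 4 of the 27 genes (14.8%) had both H3.3G34W libraries above both H3.3WT libraries, beside 11.6% of all genes tested, and 3 (11.1%) had both below, beside 14.7%.

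Markers of other lineages were set beside the osteoblast genes as a check of the cell label. Per kb, the skeletal-muscle factor MYOD1 had a median of 388 (percentile 74.5) and the muscle filament gene DES 726 (percentile 82.8), both above RUNX2 with 77.6. Of 7 muscle markers, 4 had a median above that of RUNX2, and 3 were below it (MYF5 with 51.6, MYH3 with 26.2 and CKM with 4.82). MYOD1 had 853 normalised estimated counts in EV replicate 2, 916 and 526 in H3.3WT and 139 and 700 in H3.3G34W. RUNX2 and MYOD1 were both lowest in H3.3G34W replicate 1, as were 40% of all genes tested. Over all 7 muscle markers the values summed to 5284 in EV replicate 2, 6974 and 3005 in H3.3WT and 1792 and 4869 in H3.3G34W. DES was the most abundant in 3 of the libraries and ACTC1 in both H3.3G34W libraries. Cartilage markers were partly present: SOX9 had a median of 105.6 per kb, with a range of 58.8 to 143 that overlapped that of RUNX2, whereas ACAN had 0.502. The fat-cell factor PPARG had a median of 161 per kb, and ADIPOQ had 1.58. Medians above that of RUNX2 were found for 2 of 5 endothelial markers with a length (TEK with 391 and TIE1 with 235), 1 of 8 neural markers (TUBB3 with 3331), 2 of 10 cartilage markers (MATN3 with 412 and SOX9), 1 of 8 fat-cell markers and 0 of 9 blood and osteoclast markers. Of the 8 neural markers 4 were tested, with 0 passing the adjusted threshold in limma. At an unadjusted p under 0.05 there were 2, beside 2.70% of all genes tested. Of the 4 tested, 3 were higher in both H3.3G34W libraries than in both H3.3WT libraries, beside 11.6% of all genes tested. Among these, DCX and PAX6 reached the test's mean only through H3.3G34W replicate 1 (196 and 37.2). They were therefore not read as a difference between the lines. MAP2 was highest in EV replicate 2 (116, against 77.2 and 51.1 in H3.3G34W). Of the osteoclast genes, CTSK had a median of 51.1 per kb, ACP5 35.3 and CSF1R 24.1, while OCSTAMP was listed at 0 in all 5 libraries. The label of an osteoblast line thus met high SPARC and type I collagen, and moderate SPP1, ALPL, RUNX2 and BGLAP. MSX2, DLX5 and SP7 were low, and the IBSP median was 0. Medians above that of RUNX2 were found for 4 of 7 muscle markers and for 0 to 2 markers of each other list counted.

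**Figure D5:**
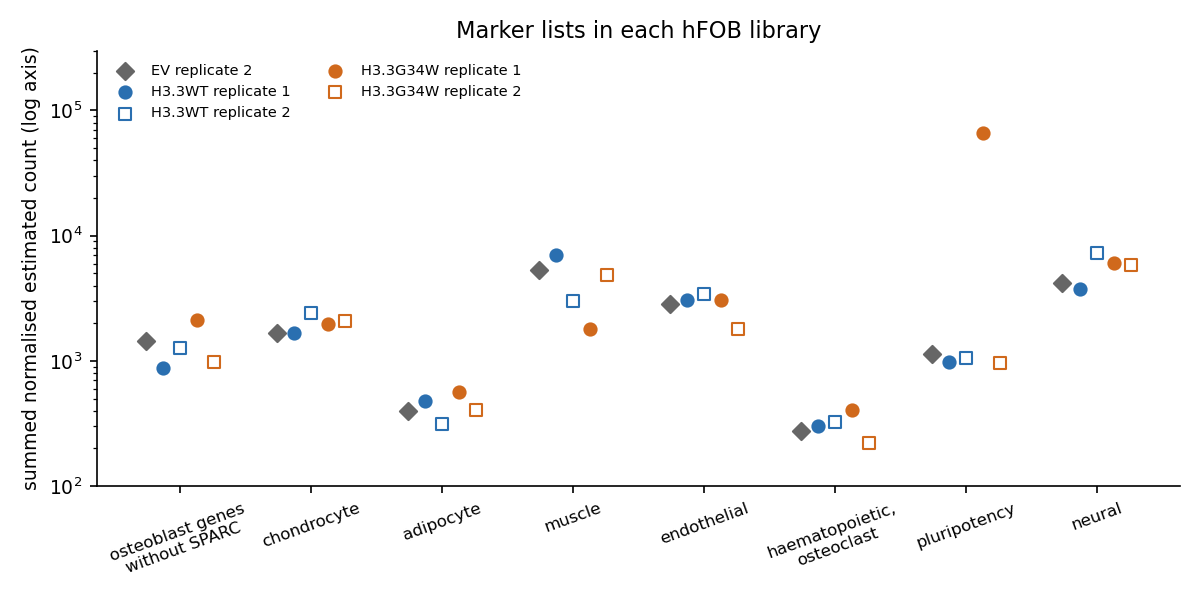
Summed normalised estimated counts of each marker list in each library, on a log axis; the first column is the osteoblast genes without SPARC, and sums are to be compared between libraries within a list. Pluripotency markers sum to 66354 in H3.3G34W replicate 1 and to at most 1142 elsewhere, and muscle markers have their lowest sum, 1792, in the same library.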

How the data were processed

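Poly(A) RNA of hFOB cells was sequenced, 2 libraries per line. The authors estimated transcript counts with kallisto on Ensembl models of GRCh38, brought these to gene level through tximport, and used DESeq2 for normalisation. The deposited unit is therefore a normalised signal. Of low values, 58.2% to 67.6% lay within 0.02 of a whole multiple of the library's smallest recurring step, so whole reads were not recovered, no count test was run and depth per library is unknown; precision was judged from the spread between libraries.

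Groups were taken from the library titles, while the genotype entries of the labels swap H3.3WT and H3.3G34W. Cells were collected in duplicate, and which transduction each library came from is not given. The 5 libraries were fitted with limma 3.58.1 in R 4.3.3 on log2(value + 1), with moderated variances that follow a trend with the mean and no covariate, over 16259 genes with a mean of at least 10. P-values were adjusted by the Benjamini-Hochberg method over all genes tested, with a threshold of 0.05. Fold changes on this scale understate differences of low genes. The fit was also run on simulated data. These held no library set apart like H3.3G34W replicate 1, so that run does not show how the fit performs on these libraries.

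Transcript lengths are those of the Ensembl canonical transcripts in GENCODE v44 lifted to GRCh37, used for lengths only and found by gene identifier for 98.6% of the genes. The values were made on Ensembl 99 models of GRCh38, so lengths may differ from the models counted, and the isoforms made in these cells may differ as well. Coordinates are those of RefSeq genes in GRCh38.p14, found by symbol. Promoters were taken from RefSeq and searched for exact letters. Figures were drawn with matplotlib 3.10.9.

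The osteoblast genes and the gene lists were chosen with earlier results of these data known. Genes eligible to be named are the 9 osteoblast genes; from each list the 3 with the highest mean and, since none passed the threshold, up to 3 with a mean of at least 50 and the largest distance between the closest libraries of H3.3G34W and H3.3WT; and marker genes whose level is given. Not all eligible list genes are printed, and those shown were picked from them after their values were seen. PMF1-BGLAP, OCSTAMP and the late genes below the test's mean, and MYF5, MYH3, CKM, MAP2, DCX and PAX6, were named after their values were seen. Alternatives were all 6 libraries, only the lines compared, a replicate block, no variance trend, pseudocounts of 0.1 and 10, no filter, a mean of at least 50, rescaled values and leaving out each library.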

Additional observations from a re-analysis of the deposited data

Results flagged for a closer look

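SP7 had a value of 48.6 in EV replicate 1, the library that was left out of the comparisons, against 1.57 in EV replicate 2. The highest value in the H3.3WT and H3.3G34W libraries was 6.03. SP7 lies on chromosome 12. The other 8 osteoblast genes are listed at 0 in EV replicate 1, whose values summed to 157595150, so its scale differs from that of the other libraries. The cause was not tested.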

How the results depend on the processing

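The difference of an osteoblast gene took the opposite sign in 21 combinations of a gene, a comparison and an alternative, and none of these passed the threshold in limma. Several alternatives change only the variance or the genes tested and cannot move a difference, so this count does not measure stability. With each library left out in turn, the difference between H3.3G34W and H3.3WT ranged from -0.78 to 0.13 for RUNX2, from -1.16 to 2.33 for ALPL, from -0.14 to 1.52 for SPP1, from -0.59 to 0.55 for MSX2, from -0.074 to 0.14 for SPARC and from -3.08 to -0.60 for BGLAP. Between H3.3WT and EV it ranged from -1.26 to 0.40 for SPP1 and from -0.039 to 0.19 for MSX2. Between H3.3G34W and EV it ranged from -1.27 to -0.36 for RUNX2, from -0.36 to 2.12 for BGLAP, from -1.99 to 1.50 for ALPL, from -0.13 to 0.65 for SPP1 and from -0.52 to 0.62 for MSX2. Intervals of 95% left out 0 for ALPL and BGLAP between H3.3G34W and H3.3WT without H3.3G34W replicate 2 and for SPP1 without H3.3WT replicate 2. Between H3.3WT and EV this held for BGLAP with each H3.3G34W library left out in turn (0.68 to 4.75 without replicate 1) and with only the lines compared. Between H3.3G34W and EV it held for ALPL with each of these left out in turn, with opposite signs, and for RUNX2 without H3.3G34W replicate 2. A lone library is then assumed to vary like the others.

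With all 6 libraries, EV replicate 1 with its listed zeros turned the H3.3WT against EV difference to 4.09 for RUNX2, 3.54 for ALPL and 3.91 for SPP1, and the H3.3G34W against EV difference to 3.76 for RUNX2 and 4.13 for ALPL. MSX2 between H3.3G34W and H3.3WT became 0.0081 with a pseudocount of 10 and 0.039 with rescaled values; rescaling moved H3.3G34W replicate 1 by -0.14 on the log2 scale, the largest shift. Per length or not, SPARC came first; 3 osteoblast genes changed place in the order without length, and 2 to 6 in single libraries.

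The count of genes passing the threshold between H3.3G34W and H3.3WT went from 0 to 13 when single libraries were dropped, with 6 without H3.3WT replicate 1, 1 (AP002748.5) without H3.3WT replicate 2 and 13 without H3.3G34W replicate 2. These 13 were MT-ATP6, MT-CO1, MT-CO2, MT-CO3, MT-CYB, MT-ND2 and MT-ND4 of the mitochondrial genome, the pluripotency markers POU5F1, LIN28A, TDGF1 and DNMT3B, and CD24 and CLDN6. Between H3.3WT and EV it ranged from 0 to 3, with AP002748.5, MMP11 and VASN passing without H3.3WT replicate 1. With a pseudocount of 0.1, 1 gene (PPP1R11) passed in each comparison with EV. These genes were named after their values were seen, and the cause was not tested. No gene of the 6 other osteoblast-related lists or of the osteoblast genes passed between H3.3G34W and H3.3WT under any alternative.

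With the replicate block, 0 genes passed in each comparison, and differences between H3.3G34W and H3.3WT did not move. MSX2 became -0.27 between H3.3WT and EV and -0.29 between H3.3G34W and EV. In the same order of comparisons ALPL became -1.72 and -1.13, RUNX2 -0.23 and -0.55, BGLAP 3.29 and 1.45, SPP1 -0.21 and 0.48, and SPARC 0.16 and 0.19. Genes at an unadjusted p under 0.05 numbered 715 between H3.3G34W and H3.3WT with the block and 25 with all 6 libraries; between H3.3G34W and EV they numbered 1311 without H3.3G34W replicate 2. Between H3.3WT and EV they numbered 369 with the block, 268 without H3.3WT replicate 1, 377 without the variance trend and 917 with no filter. With no filter, genes at an unadjusted p under 0.05 numbered 791 between H3.3G34W and H3.3WT, and they also rose between H3.3G34W and EV. With all 6 libraries they numbered 40 between H3.3WT and EV and 91 between H3.3G34W and EV. Deviations of same-numbered libraries correlated at 0.0872 across 13403 genes for H3.3G34W and H3.3WT, with H3.3G34W replicate 1 on one side.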

Other observations

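Several genes outside the osteoblast set had their highest value in H3.3G34W replicate 1, by more than 3-fold over each of the other 4 libraries. PDPN, an early osteocyte gene, had 991 normalised estimated counts there and at most 28.2 elsewhere. FGFR2 had 227 there and at most 17.1 elsewhere. SFRP1, a secreted WNT inhibitor, had 14589 there and at most 4368 elsewhere. KDR had 656 there and at most 78.3 elsewhere. PDPN, FGFR2 and SFRP1 were named after their values were seen. The parathyroid hormone receptor gene PTH1R, likewise, had 22.9 in EV replicate 2, 82.7 and 80.4 in H3.3WT and 31.0 and 12.5 in H3.3G34W. Both H3.3G34W libraries were below both H3.3WT libraries for PTH1R, as for 14.7% of all genes tested, and EV replicate 2 was below both H3.3WT libraries too.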
